A study of Rattus norvegicus with 9 samples.

Results

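Contractile proteins of smooth muscle were followed through 10 genes, Cnn1, Tagln, Cald1, Tpm1, Tpm2, Smtn, Lmod1, Myh11, Mylk and Des, in cultured rat smooth muscle cells of the pulmonary artery. Members were the non-control probes whose gene name or listed accession in the scanner output belonged to 1 of these genes. They numbered 21 of the 41012 non-control probes on the array, 19 found by gene name and 2 by accession alone. Of the 21, 20 had a signal well above background throughout at least 1 group of arrays and were tested together with all other such probes, 26656 in number. The array is an Agilent whole-genome rat expression array with probes of 60 bases, hybridised in 1 colour.

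The cells came from male Sprague Dawley rats and were used at culture generation 4. They fall into 3 groups of 3 arrays each: normoxia, kept in an ordinary incubator at 37 °C, hypoxia, kept in a sealed chamber at 1% O2 and 5% CO2, and hypoxia with quercetin, a plant flavonol. Per the labels' protocols, serum was withdrawn for 24 h, after which quercetin or its vehicle, 0.1% DMSO, was given for 24 h together with 10% fetal bovine serum, so serum was present during treatment in all groups. The sources used here give no quercetin dose, and nothing says that the arrays of a group came from separate cultures or animals, so the p-values reflect the spread among these 9 arrays alone, which may be technical. The design poses 3 comparisons: hypoxia against normoxia, quercetin in hypoxia against hypoxia alone, and quercetin in hypoxia against normoxia. Each group enters more than 1 of them, so the comparisons are not independent, and their values for a gene are given side by side.

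Smooth muscle shortens when calcium turns on myosin light chain kinase, which phosphorylates the regulatory light chain of smooth muscle myosin and lets its heads pull on actin filaments. Tropomyosin, caldesmon and calponin lie along those filaments and tune the pull, and intermediate filaments of desmin and vimentin carry force between the dense bodies where the filaments are anchored. Cultured arterial smooth muscle cells are known to lose part of this apparatus as they proliferate, so the genes are widely used as markers of the contractile state, and their transcription is driven in large part by serum response factor with its cofactor myocardin.

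Each gene was read by 1 to 4 probes, and several results below turn on what a probe covers, so the probes behind those results are printed here, 5′ to 3′, as the scanner files list them, with positions in the rat genome build rn4. Probes are called by the last part of their array name (P276276 for A_44_P276276). The files give no exon or intron label for them. The first matches an mRNA record of h-caldesmon, the long form of caldesmon found in differentiated smooth muscle, and lies at chr4:62126457-62126516 on the plus strand.
Cald1 P276276: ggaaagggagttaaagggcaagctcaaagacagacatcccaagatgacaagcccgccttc
The Tpm1 probe P320620 (chr8:71340322-71340381, minus strand) and the Tpm2 probe P1042783 (chr5:59997963-59998563, minus strand, split over 601 bases) overlap by 35 bases without gaps, of which 27 are identical, or 77.1%, and the capitals mark those bases.
Tpm1 P320620: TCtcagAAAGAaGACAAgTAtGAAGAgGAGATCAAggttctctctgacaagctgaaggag
Tpm2 P1042783: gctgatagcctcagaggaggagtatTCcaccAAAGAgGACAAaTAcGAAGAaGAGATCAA
No other pair of probes from different members, and no member probe with a probe of Tpm3, Tpm4, Cnn3, Tagln2, Tagln3, Myh9 or Myh10, reached 75% identity over a whole ungapped overlap of at least 20 bases. Shorter similar stretches inside an overlap were not searched for, and Cnn2 had no probe by that name to compare. Myh11 was read by probes that lie far apart along the gene, at chr10:719479-719538 and at chr10:769508-769567, both on the plus strand, and these differed in their response to quercetin.
Myh11 P274021: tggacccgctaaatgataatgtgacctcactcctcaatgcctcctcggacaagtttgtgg
Myh11 P489468: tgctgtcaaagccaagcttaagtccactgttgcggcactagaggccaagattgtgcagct

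Values are log2 intensities relative to the 75th percentile of all non-control probes of the same array, called levels here, and changes are differences between group means of levels ± standard error, with 3 arrays per group. Each p is limma's moderated p, two-sided, after Benjamini-Hochberg adjustment over all 26656 probes, and a change passed at an adjusted p under 0.05. Between 65.1% and 74.3% of probes were well above background on the normoxia arrays, 53.0% to 66.6% on the hypoxia arrays and 53.9% to 68.7% on the quercetin arrays, and no spot was saturated. By slide, normoxia replicates 1 and 2 lay together and were scanned on day 1, normoxia replicate 3 lay with all of the hypoxia arrays, and the quercetin arrays lay on a slide of their own, both scanned on day 2, so quercetin and its slide cannot be told apart. Within the shared slide, hypoxia can be set against normoxia replicate 3 alone. With scan day as a block, quercetin against normoxia likewise rests on normoxia replicate 3 alone. A call can be lost there without a smaller change. Scaled to 8 labelling spike-in probes instead of the percentile, all probes together had a median change of -0.42 in hypoxia (0.09 by the percentile), 0.03 with quercetin against hypoxia (-0.06) and -0.38 with quercetin against normoxia (0.03). Directions below are therefore relative to the bulk of probes.

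In hypoxia, transcripts of calponin, transgelin, smooth muscle myosin, β-tropomyosin and desmin were higher than in normoxia, by 1.74- to 10.5-fold on each gene's brightest probe. With quercetin all 5 were lower than in hypoxia alone, by 1.39- to 5.66-fold. Against normoxia, quercetin-treated cells had lower calponin, transgelin, smooth muscle myosin and myosin light chain kinase on the brightest probes, and higher desmin and, by the percentile scaling, β-tropomyosin. Of these only the calponin difference passed in every alternative run. Transgelin, the myosin and the kinase did not pass with scan day as a block, where their values were -0.56, -0.72 and -1.27. The kinase and desmin did not with normexp correction (adjusted p = 0.072 and 0.067). The other probe of the myosin changed by 0.28 and did not pass. Of the 20 member probes, 12 were higher in hypoxia and 1 was lower, 13 in all, where 64.3% of all probes passed, 34.6% higher and 29.7% lower. With quercetin against hypoxia 14 member probes were lower and none higher, where 58.7% of all probes passed and 31.3% were lower. Against normoxia, 4 were higher and 6 lower with quercetin, 10 in all, where 44.6% of all probes passed, 22.8% higher and 21.8% lower. Relative to the spike-in probes 6 member probes were higher and 5 lower in hypoxia, where 11.8% of all probes were higher and 49.9% lower. On that scale 12 were lower with quercetin against hypoxia, where 25.6% of all probes were, and 1 was higher and 11 lower against normoxia, where 7.2% and 45.8% were. Groups did not overlap for 14 member probes in the first comparison, 15 in the second and 9 in the third, against 71.8%, 71.1% and 53.5% of all probes. Against normoxia the share of member probes that passed lay near that of all probes, in hypoxia and with quercetin alike. The median change over the member probes was 0.71 in hypoxia, -0.80 with quercetin against hypoxia and -0.16 with quercetin against normoxia, beside 0.09, -0.06 and 0.03 over all probes. Read by the brightest probe of each gene alone, 5 of 10 genes were higher in hypoxia, 7 were lower with quercetin, and against normoxia 2 were higher and 4 lower. Over all genes read that way, 35.3% were higher and 28.9% lower in hypoxia, and 31.5% were lower with quercetin against hypoxia. Against normoxia 23.0% of all genes were higher and 21.3% lower. In RNA from whole cultures, fewer cells of a type and less RNA per cell cannot be told apart.

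**Figure D1:**
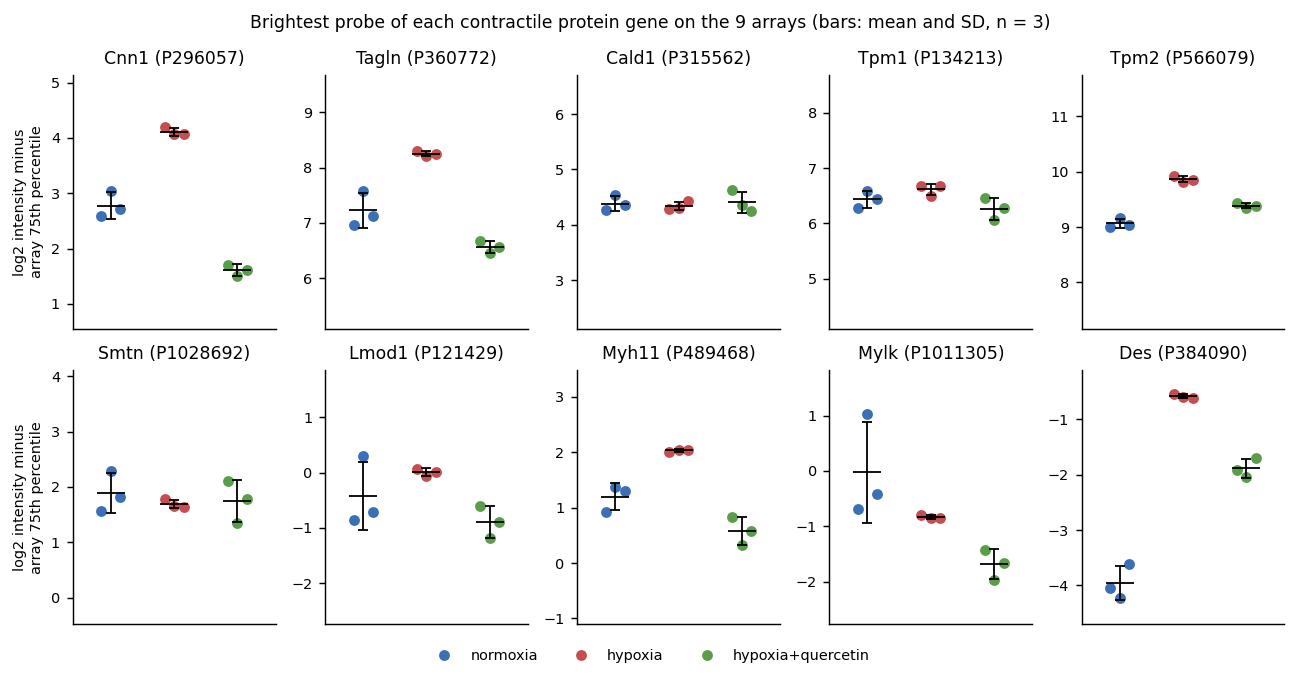
Level of the brightest probe of each of the 10 genes on the 9 arrays (y axis: log2 intensity minus the array's 75th percentile; every panel spans the same range), with mean and SD of the 3 arrays of a group. The hypoxia arrays lie highest and apart from both other groups for Cnn1, Tagln, Tpm2, Myh11 and Des, the groups overlap for Cald1 and Smtn, and normoxia replicate 2 stands high for Mylk and Lmod1.

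Calponin 1 (Cnn1, P296057, chr8:21219991-21220050), an actin-binding protein that restrains the myosin ATPase and is largely confined to differentiated smooth muscle, gave levels of 2.58, 3.04 and 2.71 in normoxia, 4.19, 4.07 and 4.07 in hypoxia, and 1.71, 1.5 and 1.62 with quercetin. The 3 groups did not overlap, and quercetin-treated cells lay lowest. Hypoxia raised it by 1.33 ± 0.13 (2.52-fold, adjusted p = 4.6e-05), quercetin lowered it by 5.66-fold against hypoxia (-2.50 ± 0.13, adjusted p = 4.5e-06), and against normoxia the change was -1.17 ± 0.13 (2.25-fold lower, adjusted p = 2.1e-04). Within the shared slide the first change was 1.40. All 3 changes passed under every alternative run, and over normexp correction, quantile normalization, spike-in scaling and the scan-day block the adjusted p ran from 8.1e-06 to 0.0062.

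Transgelin (Tagln, SM22α, P360772, chr8:48902736-48903116, split over 381 bases), a small actin-binding protein abundant in smooth muscle, followed the same order. Its levels were 6.97, 7.58 and 7.13 in normoxia, 8.30, 8.21 and 8.24 in hypoxia, and 6.68, 6.46 and 6.57 with quercetin, again without overlap. The change was 1.03 ± 0.15 in hypoxia (2.04-fold, adjusted p = 5.1e-04), -1.68 ± 0.15 with quercetin against hypoxia (3.21-fold lower, adjusted p = 4.4e-05) and -0.66 ± 0.15 against normoxia (1.58-fold lower, adjusted p = 0.0083). The rise in hypoxia did not pass after quantile normalization, where it was 0.36 (adjusted p = 0.14). With scan day as a block the difference from normoxia was -0.56 (adjusted p = 0.10).

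Caldesmon (Cald1) inhibits the actin-activated myosin ATPase and exists as a long form of differentiated smooth muscle, h-caldesmon, and a short form of most cells, l-caldesmon. Its probes did not move alike. The brightest, P315562 (chr4:62156243-62156302), which lists the gene's RefSeq transcript, read 4.26, 4.53 and 4.35 in normoxia, 4.28, 4.30 and 4.42 in hypoxia, and 4.62, 4.35 and 4.24 with quercetin. These groups overlap, and the changes were -0.04, 0.07 and 0.03, each with a standard error of 0.12 and a 95% interval within 0.35 of 0. The change in hypoxia was -0.55 relative to the spike-in probes and passed (adjusted p = 0.0092). The h-caldesmon probe P276276, printed above, read -1.13, -0.83 and -0.77 in normoxia, -1.97, -1.95 and -2.00 in hypoxia, and -1.70, -2.09 and -1.94 with quercetin. All 6 hypoxic arrays lay below all 3 normoxic ones. It fell by 1.07 ± 0.13 in hypoxia (2.10-fold, adjusted p = 1.7e-04), lay 0.07 ± 0.13 from hypoxia with quercetin (95% interval -0.23 to 0.36, adjusted p = 0.68) and 2.00-fold below normoxia there (-1.0 ± 0.13, adjusted p = 5.0e-04). It was the only member probe that was lower in hypoxia, and it passed there in every alternative run, the within-slide value being -1.21. With normexp background correction the fall against normoxia under quercetin was -0.49 and did not pass (adjusted p = 0.18).

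A further pair of caldesmon probes matches an mRNA record of the nonmuscle form and was found by accession. P660244 was below the detection flag on all arrays of every group and was not tested. P660246 was well above background on 7 of 9 arrays and close to the limit, at -6.29, -6.13 and -5.21 in normoxia, -4.77, -5.11 and -5.26 in hypoxia and -5.81, -5.25 and -5.61 with quercetin, with overlapping groups. Its change in hypoxia, 0.83 ± 0.29 (adjusted p = 0.033), did not pass within the shared slide (0.16, adjusted p = 0.64), with normexp correction (0.07, adjusted p = 0.96), after quantile normalization (0.74, adjusted p = 0.064) or relative to the spike-in probes (0.32, adjusted p = 0.32), or when normoxia replicate 1, normoxia replicate 2, hypoxia replicate 1 or hypoxia replicate 2 was left out. Leaving out 1 array at a time moved it between 0.62 and 1.16.

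Tropomyosins are coiled-coil dimers that run along the actin filament and gate where myosin binds. β-tropomyosin (Tpm2) was higher in hypoxia on all 3 of its probes. P566079 (chr5:59994138-59994197), the brightest Tpm2 probe, read 9.0, 9.16 and 9.04 in normoxia, 9.93, 9.82 and 9.85 in hypoxia, and 9.43, 9.35 and 9.38 with quercetin. P1042783 read 7.60, 7.93 and 7.55, then 9.04, 8.98 and 9.01, then 8.16, 7.95 and 8.15 in the same order of groups. P10874 (chr5:60002277-60002336) read 5.47, 5.90 and 5.55, then 7.29, 7.20 and 7.14, then 6.19, 5.88 and 6.10. On each probe the hypoxia arrays lay above all others, and the quercetin arrays lay between, overlapping normoxia only on P10874. The changes in hypoxia were 0.80 ± 0.08, 1.32 ± 0.12 and 1.57 ± 0.13 (1.74-, 2.49- and 2.96-fold, largest adjusted p = 5.9e-05). With quercetin against hypoxia they were -0.48 ± 0.08, -0.93 ± 0.12 and -1.15 ± 0.13 (largest adjusted p = 0.0012). Quercetin-treated cells stayed above normoxia by 0.32 ± 0.08, 0.39 ± 0.12 and 0.41 ± 0.13 (adjusted p = 0.012, 0.026 and 0.035). The call of that last difference depends on the scaling: relative to the spike-in probes the values were -0.09, -0.02 and 0.00, none passing. With normexp correction none passed either (adjusted p = 0.19 to 0.39). With scan day as a block the values were 0.35, 0.54 and 0.51, and P566079 and P10874 did not pass. After quantile normalization P566079 and P1042783 did not (0.09 and 0.25, adjusted p = 0.49 and 0.23), and with median scaling none did. On P10874 it was lost without normoxia replicate 1 or 3, hypoxia replicate 1 or 2 or quercetin replicate 1 or 3, and on P1042783 without normoxia replicate 1 or 3 or quercetin replicate 1 or 3. After quantile normalization the change of P566079 with quercetin against hypoxia was -0.22 and did not pass (adjusted p = 0.082).

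α-tropomyosin (Tpm1) is made in several spliced forms, and its 4 probes fall into sets by the transcripts they list. P134213 (chr8:71331669-71331728) lists 4 RefSeq transcripts, of which 0 are among those listed by P320617 (chr8:71340840-71341650, split over 811 bases), P320620 and P475051 (chr8:71336933-71336989). P134213 read 6.27, 6.59 and 6.44 in normoxia, 6.68, 6.50 and 6.67 in hypoxia, and 6.45, 6.06 and 6.27 with quercetin. Normoxia and hypoxia overlapped, and the change was 0.19 ± 0.13 (95% interval -0.11 to 0.48, adjusted p = 0.23). P320617 read 4.16, 4.54 and 4.26, then 5.00, 4.92 and 4.92, then 4.39, 4.02 and 4.19. P475051 read 2.62, 3.4 and 2.75, then 3.78, 3.69 and 3.71, then 2.88, 2.63 and 2.89. P320620 read 4.38, 4.87 and 4.54, then 5.06, 5.08 and 5.10, then 4.58, 4.15 and 4.38. On these 3 probes the hypoxia arrays lay above all others, while normoxia and quercetin overlapped. They were higher in hypoxia by 0.63 ± 0.13, 0.81 ± 0.19 and 0.48 ± 0.15 (adjusted p = 0.0029, 0.0061 and 0.020), and lower with quercetin against hypoxia by 1.68-, 1.90- and 1.64-fold (adjusted p = 0.0013, 0.0034 and 0.0036). P134213 was 1.28-fold lower with quercetin (-0.36 ± 0.13, adjusted p = 0.041), a call lost without normoxia replicate 3, hypoxia replicate 1 or 3 or quercetin replicate 2 or 3, with scan day as a block (adjusted p = 0.054) and relative to the spike-in probes (-0.26, adjusted p = 0.21), and after quantile normalization the value was 0.12 (adjusted p = 0.55). Against normoxia the 4 probes changed by -0.12 to -0.23 with quercetin and none passed, with intervals from -0.56 to 0.32. Relative to the spike-in probes none of the 4 passed in hypoxia, with changes of -0.32 to 0.30, and against normoxia P134213, P320617 and P320620 were lower with quercetin, at -0.58, -0.53 and -0.63 (adjusted p = 0.018, 0.025 and 0.019). The rise of P320620 was also lost within the shared slide (0.54, adjusted p = 0.084), after quantile normalization (0.23, adjusted p = 0.24) and without normoxia replicate 1 or 3 or hypoxia replicate 3.

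Smoothelin (Smtn), a cytoskeletal protein of contractile smooth muscle cells, passed in no comparison on either probe. P1028692 (chr14:84160797-84160856) read 1.57, 2.28 and 1.82 in normoxia, 1.78, 1.66 and 1.64 in hypoxia and 2.11, 1.35 and 1.79 with quercetin, and its changes of -0.20, 0.05 and -0.14 had standard errors of 0.22. P989357 (chr14:84169175-84169234) changed by -0.47 ± 0.23 in hypoxia (95% interval -1.0 to 0.07, adjusted p = 0.11) and by 0.06 and -0.41 in the other comparisons. Relative to the spike-in probes both were lower in hypoxia, at -0.70 and -0.97 (adjusted p = 0.041 and 0.012). Leiomodin 1 (Lmod1, P121429, chr13:48360886-48360945), which nucleates actin filaments, read -0.85, 0.29 and -0.71 in normoxia, 0.07, -0.07 and 0.01 in hypoxia, and -0.60, -1.18 and -0.89 with quercetin. Normoxia replicate 2 lay above every other array. The change in hypoxia was 0.43 ± 0.28 (adjusted p = 0.21), and 0.78 and past the threshold without that replicate. With quercetin against hypoxia it was -0.90 ± 0.28 (1.86-fold lower, adjusted p = 0.025), a call lost without hypoxia replicate 1 or 3 or quercetin replicate 2 or 3 with normexp correction (-0.67, adjusted p = 0.083) and relative to the spike-in probes (-0.80, adjusted p = 0.053). On that last scale its difference from normoxia was -0.88 and passed (adjusted p = 0.040).

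Smooth muscle myosin heavy chain (Myh11), the motor itself and the most restricted of smooth muscle markers, was higher in hypoxia on both of its probes, printed above. The brighter probe P489468 read 0.92, 1.38 and 1.30 in normoxia, 2.01, 2.04 and 2.05 in hypoxia, and 0.83, 0.33 and 0.57 with quercetin. P274021 read -0.14, 0.15 and 0.73, then 1.28, 1.13 and 1.22, then 0.61, 0.49 and 0.47. Quercetin-treated cells lay below every normoxia array on P489468 and within the normoxia range on P274021. The changes in hypoxia were 0.83 ± 0.16 and 0.97 ± 0.19 (1.78- and 1.95-fold, adjusted p = 0.0019 and 0.0026), and within the shared slide 0.73 and 0.49 (adjusted p = 0.036 and 0.031). With quercetin against hypoxia P489468 was 2.74-fold lower (-1.45 ± 0.16, adjusted p = 1.1e-04) and P274021 1.61-fold lower (-0.69 ± 0.19, adjusted p = 0.015). Against normoxia the difference was -0.62 ± 0.16 on P489468 (adjusted p = 0.013) and 0.28 ± 0.19 on P274021 (adjusted p = 0.28, passing at 0.52 without normoxia replicate 3), and with scan day as a block neither passed (-0.72 and -0.20, adjusted p = 0.055 and 0.34). Relative to the spike-in probes the changes in hypoxia were 0.33 and 0.46 and did not pass.

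Myosin light chain kinase (Mylk), the enzyme that switches the motor on, was lower with quercetin than in normoxia on both of its probes. P1011305 (chr11:67604300-67604359) read -0.69, 1.02 and -0.41 in normoxia, -0.80, -0.86 and -0.85 in hypoxia, and -1.43, -1.97 and -1.66 with quercetin. P537118 (chr11:67657657-67658457, split over 801 bases) read -3.77, -2.61 and -3.75, then -3.10, -2.71 and -2.86, then -5.49, -4.94 and -4.60, and was well above background on 2 of the 3 quercetin arrays. Normoxia replicate 2 was the highest of the 9 arrays on both. The changes in hypoxia, -0.81 ± 0.39 and 0.49 ± 0.34, did not pass (adjusted p = 0.099 and 0.23). The first was -1.31 relative to the spike-in probes and passed (adjusted p = 0.020). Without normoxia replicate 1 it was -1.14, and without normoxia replicate 2 the second was 0.87, and these passed. With quercetin against hypoxia P537118 was 4.35-fold lower (-2.12 ± 0.34, adjusted p = 8.6e-04) and P1011305 changed by -0.85 ± 0.39 (adjusted p = 0.092), which passed without normoxia replicate 2. Against normoxia both were lower, by 3.15-fold on P1011305 (-1.66 ± 0.39, adjusted p = 0.0090) and 3.11-fold on P537118 (-1.64 ± 0.34, adjusted p = 0.0048), but with scan day as a block the values were -1.27 and -1.26 and did not pass (adjusted p = 0.13 and 0.087). With normexp correction neither passed (-1.06 and -0.09, adjusted p = 0.072 and 0.90). On the dim probe P537118 the change against hypoxia was -0.30 (adjusted p = 0.66) with normexp correction, which also adds an offset of 50 to every intensity.

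Desmin (Des, P384090, chr9:74645149-74645208), the muscle intermediate filament protein, had the largest change of the members' probes in hypoxia and stayed above normoxia with quercetin. It read -4.05, -4.22 and -3.62 in normoxia, -0.54, -0.59 and -0.61 in hypoxia, and -1.92, -2.04 and -1.70 with quercetin, with no overlap and quercetin between. The rise in hypoxia was 3.39 ± 0.16 (10.5-fold, adjusted p = 2.5e-06), and 3.05 within the shared slide. Quercetin lowered it 2.48-fold against hypoxia (-1.31 ± 0.16, adjusted p = 1.9e-04) and left it 4.21-fold above normoxia (2.07 ± 0.16, adjusted p = 3.8e-05). Its normoxia intensities were 31.9 to 47.5 before scaling, below the offset of 50 that the normexp run adds to every intensity. With normexp the changes were 1.77 (adjusted p = 0.0027), -0.79 (adjusted p = 0.091) and 0.99 (adjusted p = 0.067). The part of the offset in these smaller values was not tested.

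**Figure D2:**
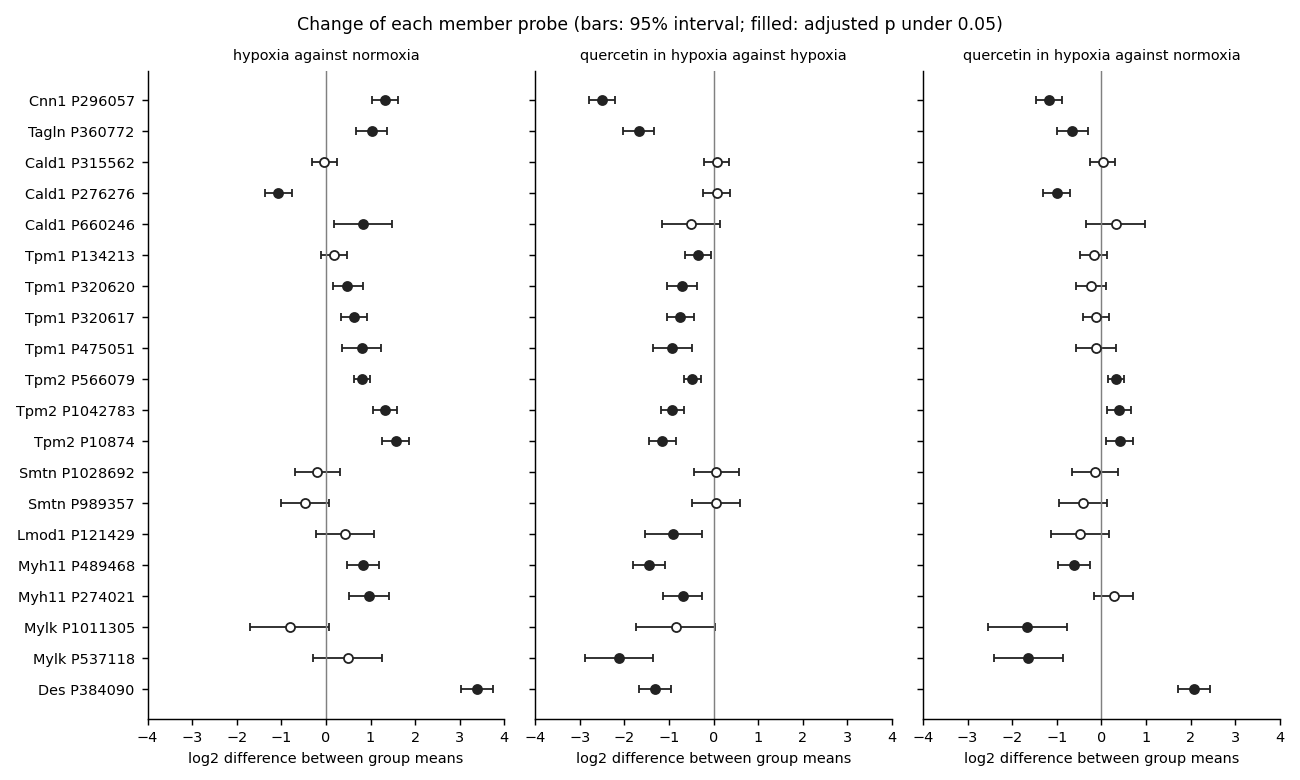
Change of each of the 20 member probes in the 3 comparisons (x axis: log2 difference between group means; bars: 95% interval; filled circles: adjusted p under 0.05), ordered by gene and by normoxia level. In the middle panel all 14 filled circles lie left of 0, and in the right panel Cnn1, Tagln, Mylk, Myh11 P489468 and Cald1 P276276 have filled circles left of 0 while Des and Tpm2 have them right of it.

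Set against each other within a gene, probes of the same transcript family changed by different amounts. For 10 pairs, the brightest probe of a gene and each of its further probes, the difference between their changes was tested in a fit over all 4548 such pairs on the array. In hypoxia against normoxia 8 of the 10 pairs differed, where 30.5% of all pairs did, in quercetin against hypoxia 7 differed, where 28.0% did, and in quercetin against normoxia 2 differed, where 13.1% did. The pairs of 1 gene share its brightest probe and are not independent. In Cald1, the brightest probe minus the h-caldesmon probe changed by 1.02 ± 0.10 in hypoxia (adjusted p = 1.9e-04) and by 1.03 ± 0.10 with quercetin against normoxia (adjusted p = 9.4e-04). With normexp correction these were 0.71 and 0.45 and did not pass (adjusted p = 0.28 and 0.68).

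In both tropomyosins the brightest probe moved least, in hypoxia and with quercetin against hypoxia. The Tpm2 probe P566079 rose less in hypoxia than P10874 by 0.76 ± 0.09 (difference -0.76, adjusted p = 4.9e-04) and less than P1042783 by 0.52 ± 0.08 (difference -0.52, adjusted p = 0.0017), and with quercetin it fell less, by 0.67 ± 0.09 (adjusted p = 0.0011) and 0.45 ± 0.08 (adjusted p = 0.0040). For Tpm1 the differences of P134213 from P320617, P320620 and P475051 were -0.44 ± 0.06, -0.30 ± 0.07 and -0.62 ± 0.13 in hypoxia (adjusted p = 0.0010, 0.016 and 0.0092) and 0.39, 0.35 and 0.57 with quercetin against hypoxia (adjusted p = 0.0021, 0.0088 and 0.015). The difference from P320620 in hypoxia was lost without normoxia replicate 1 or 3, within the shared slide (-0.36, adjusted p = 0.065) and with normexp correction (-0.27, adjusted p = 0.07), and that from P475051 with quercetin without hypoxia replicate 2 or quercetin replicate 1. Against normoxia none of the 5 tropomyosin pairs passed. Over all 4548 pairs the brightest probe had the smaller absolute change in 50.9%, 51.3% and 50.3% of pairs in the 3 comparisons. The part of signal strength or of transcript form in the tropomyosin differences was not tested. A pair of probes that name α-tropomyosin in their description without its gene symbol, looked at after the values were seen, also differed: the one from an alternatively spliced mRNA record was higher in hypoxia by 0.90 ± 0.16 (adjusted p = 0.0016), and the one from a genomic record changed by -0.02 ± 0.21 (adjusted p = 0.93).

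The Myh11 pair was not among those that differed in hypoxia, and with quercetin against hypoxia the fall was larger on P489468 than on P274021, by -0.77 ± 0.17 (adjusted p = 0.012). Against normoxia the change of P489468 minus that of P274021 was -0.90 ± 0.17 (adjusted p = 0.013). The second was lost without normoxia replicate 1 (-0.85, adjusted p = 0.053) and with scan day as a block (-0.52, adjusted p = 0.15). The Mylk probes differed in hypoxia, P1011305 minus P537118 changing by -1.29 ± 0.31 (adjusted p = 0.014), and in the opposite sense with quercetin against hypoxia, by 1.27 ± 0.31 (adjusted p = 0.016), so that against normoxia their changes stood 0.02 apart. After normexp correction the second of these differences was -0.15, without hypoxia replicate 2 it did not pass, and the first was lost without normoxia replicate 2 (-1.15, adjusted p = 0.051) and within the shared slide (-1.28, adjusted p = 0.12). The Smtn probes differed in hypoxia by 0.27 ± 0.07 (adjusted p = 0.026) although neither passed alone, a call lost within the shared slide (0.14, adjusted p = 0.38) and without normoxia replicate 1 or 2 or hypoxia replicate 1 or 3.

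**Figure D3:**
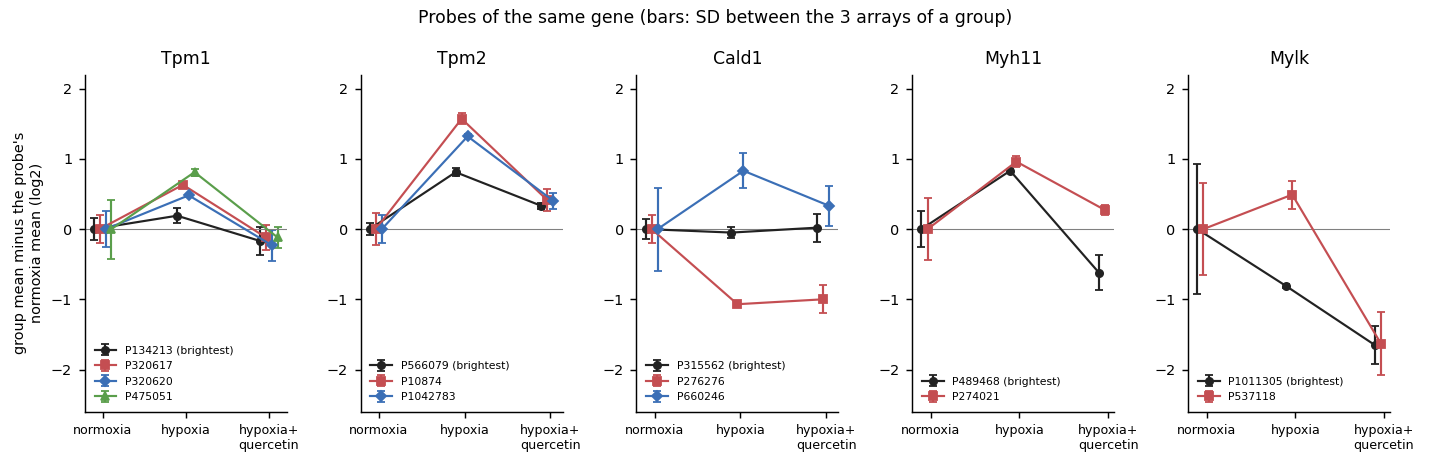
Group means of each tested probe of Tpm1, Tpm2, Cald1, Myh11 and Mylk, as log2 difference from that probe's own normoxia mean (bars: SD of the 3 arrays of a group). In Tpm1 and Tpm2 the brightest probe shows the smallest hypoxia change, 0.19 and 0.80, and in Cald1 the h-caldesmon probe P276276 falls by 1.07 while the brightest probe changes by -0.04 and 0.03.

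Other genes of the contractile apparatus were read from lists, each gene by its brightest probe. Over all 22108 genes read by 1 probe each, 64.2% passed in hypoxia, 35.3% higher and 28.9% lower. With quercetin 58.4% passed against hypoxia, 26.9% higher and 31.5% lower, and 44.3% against normoxia, 23.0% higher and 21.3% lower. By spike-in scaling 11.8% of all probes were higher and 49.9% lower in hypoxia (median -0.42), and 7.2% and 45.8% with quercetin against normoxia (median -0.38). The list counts below are to be read beside these shares. Of 16 tested genes of the thin filament and its calcium sensitivity, 8 were higher and 3 lower in hypoxia, with a median of 0.37, but 2 higher and 6 lower relative to the spike-in probes, with a median of -0.14. Tmod1, a cap of actin filament ends, rose by 2.34 ± 0.14 (adjusted p = 5.4e-06). With quercetin against hypoxia 1 was higher and 9 lower: Tmod1 changed by -3.12 ± 0.14 (adjusted p = 2.7e-06) and Ppp1r14a, which encodes the myosin phosphatase inhibitor CPI-17, by -2.44 ± 0.18 (adjusted p = 1.8e-05). Ppp1r14a also lay below normoxia, at -2.13 ± 0.18 (adjusted p = 6.6e-05). Acta2, the α-actin of vascular smooth muscle, had no probe by that name.

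Of 7 myosin chain genes, 3 were higher and 1 lower in hypoxia. Myl9, the regulatory light chain that the kinase phosphorylates, rose by 0.76 ± 0.14 (adjusted p = 0.0018) and was 1.05 lower with quercetin (-1.05 ± 0.14, adjusted p = 3.7e-04), while Myh10, a nonmuscle heavy chain, fell by 0.86 ± 0.15 in hypoxia (adjusted p = 0.0015) and was higher with quercetin by 0.95 ± 0.15 (adjusted p = 9.7e-04). Of 7 tested nonmuscle relatives of the members, 5 were higher and 1 lower in hypoxia (2 and 2 relative to the spike-in probes), and 4 were lower with quercetin. Vimentin (Vim), the partner filament of desmin, rose by 1.27 ± 0.10 (adjusted p = 2.2e-05) and changed by -0.79 ± 0.10 with quercetin (adjusted p = 3.3e-04). Tagln2 rose by 0.61 ± 0.10 (adjusted p = 8.9e-04) and changed by -1.54 ± 0.10 with quercetin (adjusted p = 1.0e-05).

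Genes of dense bodies and adhesion plaques, where the filaments are anchored to the membrane, counted 22 higher and 1 lower of 30 in hypoxia, 3 higher and 16 lower with quercetin against hypoxia, and 13 higher and 6 lower against normoxia, with medians of 0.58, -0.39 and 0.15. By spike-in scaling the first count was 8 higher and 4 lower and the last turned, to 5 higher and 12 lower, with a median of -0.26. Dmd, which encodes dystrophin, rose by 2.71 ± 0.22 in hypoxia (adjusted p = 2.0e-05) and changed by -3.02 ± 0.22 with quercetin (adjusted p = 1.5e-05). Synm, the intermediate filament protein synemin that assembles with desmin, was higher with quercetin than in hypoxia by 1.59 ± 0.14 (adjusted p = 4.6e-05) and than in normoxia by 3.14 ± 0.14 (adjusted p = 6.2e-06). Of 10 tested regulators around serum response factor, 3 were higher and 3 lower in hypoxia and likewise with quercetin against hypoxia, and 1 was lower against normoxia. By spike-in scaling 2 were higher and 5 lower in hypoxia, with a median of -0.69, and 6 were lower against normoxia. Srf itself fell by 0.94 ± 0.08 in hypoxia (adjusted p = 3.1e-05) and was higher with quercetin by 0.82 ± 0.08 (adjusted p = 8.2e-05), and Myocd, the cofactor myocardin, rose by 0.95 ± 0.15 (adjusted p = 8.2e-04) and changed by -0.74 ± 0.15 (adjusted p = 0.0034). Relative to the spike-in probes the hypoxia medians of the myosin chain and nonmuscle relative lists were -0.31 and -0.02. Those of the member probes and dense bodies were 0.21 and 0.07, beside -0.42 over all probes. In the RefSeq promoter windows of assembly GRCr8, 300 bases each, 0 of 8 windows of 7 members held a CArG box, the binding motif of serum response factor, where 1.64% of 33469 windows did. At that share 0 is also the likely count for any 8 windows, so it says only that the motif is not in those windows.

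Markers of other cell types were read in the same way, beside the same shares of all genes and probes. Of 16 tested striated muscle markers, 10 were higher and 2 lower in hypoxia (6 and 2 relative to the spike-in probes), and 1 was higher and 10 lower with quercetin. Myh3, the embryonic skeletal myosin, rose by 4.27 ± 0.28 (adjusted p = 7.7e-06), and Myh2 rose by 3.74 ± 0.31 (adjusted p = 2.3e-05) and changed by -5.08 ± 0.31 with quercetin (adjusted p = 8.3e-06). That list averaged -2.21 to -1.78 on the normoxia arrays, -1.02 to -0.83 on the hypoxia arrays, and -2.37 to -2.33 on the quercetin arrays. Ckm, Myh4, Myl2 and Myl3, skeletal or cardiac defining genes, were not well above background on any array, and Myh6, Myh7, Myh8, Myl1, Mylpf, Tnni1, Tnnt1, Myog and Myod1 were not tested either, Mylpf for want of a probe by that name and the others as too dim.

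Of 10 fibroblast markers, 4 were higher and 4 lower in hypoxia (0 and 5 relative to the spike-in probes), none higher and 6 lower with quercetin against hypoxia, and 2 higher and 7 lower against normoxia. The 4 lower in hypoxia were Lum, Fap, Dpt and Dcn, and the list median there was 0.09, equal to that of all probes. Dcn, decorin, as 1 of these 4, fell by 4.24 ± 0.46 in hypoxia (adjusted p = 9.5e-05) and stood at -4.41 ± 0.46 from normoxia with quercetin (adjusted p = 1.8e-04). No Dcn probe was well above background on more than 7 of 9 arrays. Its hypoxia and quercetin means, -4.06 and -4.23, lay below the lowest well-above-background levels of hypoxia replicate 3 (-3.71) and quercetin replicate 1 (-3.84). The size of the fall is therefore uncertain. The normoxia arrays averaged 3.42 to 3.77 over this list, the hypoxia arrays 2.59 to 2.68, and the quercetin arrays 1.80 to 1.94. Of 5 tested epithelial markers 3, the keratins Krt7, Krt8 and Krt18, were higher in hypoxia and lower with quercetin, Krt18 by 4.93 ± 0.51 (adjusted p = 6.9e-05) and -3.22 ± 0.51 (adjusted p = 8.6e-04), with list means of -2.79 to -1.98 on the normoxia arrays, -0.58 to -0.41 on the hypoxia arrays, and -2.09 to -1.86 on the quercetin arrays. Epcam, Cdh1 and Krt19 were at background throughout. Of 8 tested leukocyte markers 5 were higher and 1 lower in hypoxia (1 and 2 relative to the spike-in probes), with list means of -2.66 to -2.07, -1.73 to -1.58 and -2.03 to -2.01 in the same order. Lyz2, well above background on 9 arrays, rose by 4.1 ± 0.36 in hypoxia (adjusted p = 3.2e-05), and Cd14 fell by 0.95 ± 0.18 (adjusted p = 0.002). Itgam and Cd3e were not above background. Of 3 tested endothelial markers 1 was lower in hypoxia, with list means of -2.64 to -2.46, -3.14 to -3.10 and -3.45 to -2.90 in the same order, and Pecam1, Tek and Tie1 were not above background. The part of these markers in the members' changes was not tested. Of the genes listed as smooth muscle markers, Cnn1, Tagln, Myh11, Smtn, Lmod1, Cald1 and Des were well above background on all 9 arrays by their brightest probes. The brightest Cald1 probe is not the h-caldesmon probe. Their list means were 1.63 to 2.12 on the normoxia arrays, 2.80 to 2.87 on the hypoxia arrays and 1.54 to 1.92 on the quercetin arrays. These lay below the fibroblast list means in normoxia and above them in hypoxia, and overlapped them with quercetin. Levels of different probes do not give relative amounts, so list means are not comparable between lists.

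**Figure D4:**
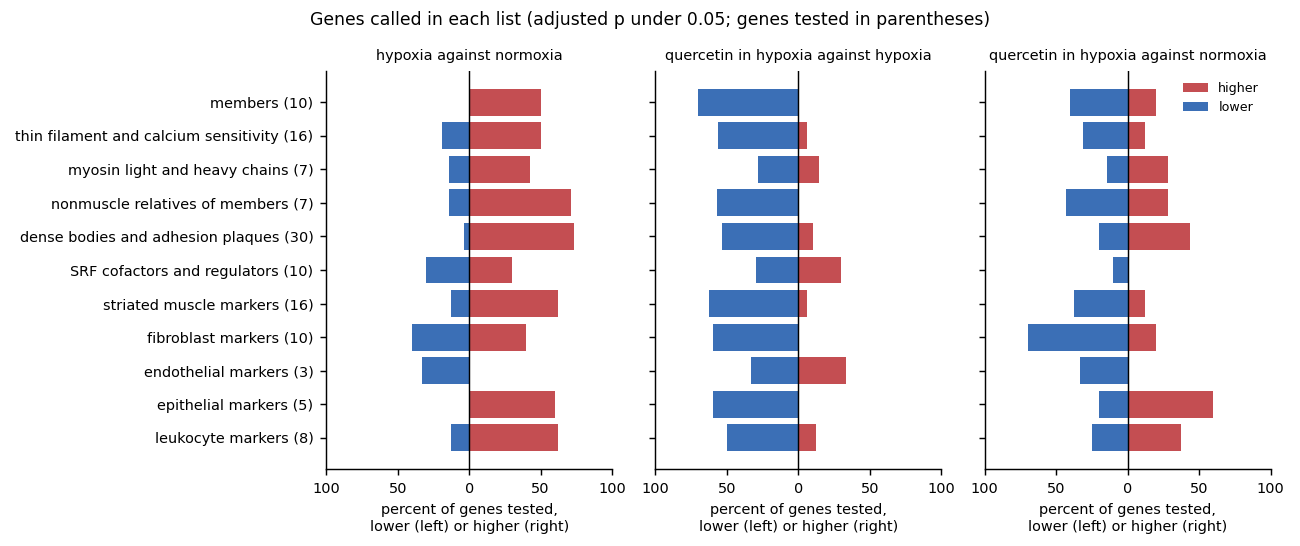
Percent of tested genes in each list that were higher (right) or lower (left) at an adjusted p under 0.05 in the 3 comparisons, with the number of genes tested in parentheses. Most lists have more genes higher than lower in hypoxia, the dense body and adhesion plaque list with 22 of 30, and more lower than higher with quercetin against hypoxia, by the percentile scaling. Over all genes read by 1 probe each, 35.3% were higher and 28.9% lower in hypoxia, and 26.9% and 31.5% with quercetin against hypoxia.

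Genes most like a member across the 9 arrays were found by the smallest root mean square difference of centred levels among 11779 other genes with a symbol. Nearest to Cnn1 were Emp1, Arhgdig and Ifgga2l1, at 0.15, 0.16 and 0.17, nearest to Tagln were Acy3, Ptafr and S100a10, at 0.06, 0.12 and 0.12, and nearest to Myh11 were Il17b, Eppk1 and Per3, at 0.11, 0.12 and 0.13. Nearest to Des were Ggct, Wfdc1 and Igfbp2, at 0.18, 0.24 and 0.28, which changed by 3.28, 3.32 and 2.91 in hypoxia. Among the members, Tagln and Myh11 lay closest to each other, at 0.15, while Des lay 1.24 from Tagln and 1.36 from Cnn1. These are descriptions of 9 arrays that share 3 groups.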

How the data were processed

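Agilent Feature Extraction 10.7.3.1 read the single channel of each slide position under a gene expression protocol, per the file headers; the labelling protocol in the labels names a microRNA kit instead. The deposited intensities are background-subtracted spot signals. The deposited log2 value table, whose normalization the sources used here do not state, correlated at 0.991 to 0.9998 with them and was used as an alternative. All its columns had the same median. In hypoxia 16426 probes passed in it, beside 16456 after quantile normalization, so those runs are not independent. Spots marked as outliers, 71 to 148 per array, were set missing, log2 was taken, spots of a probe were averaged, and the 75th percentile of non-control probes was subtracted. A probe was kept when at least 0.5 of its spots passed the scanner's well-above-background flag on each array of some group. Group means of the 9 arrays were fitted in limma 3.58.1 under R 4.3.3 (lmFit, eBayes), probe by probe, with adjustment over all kept probes. The number of arrays, 3 per group, limits the precision. Differences between probes of a gene were fitted the same way. The brightest probe of a gene is that with the highest mean level over the 9 arrays. Names came from a RefSeq gene table of assembly GRCr8, used for names only, since the probe positions are those of rn4. The fits were also run on simulated arrays with few changed probes and no slide or scan-day effect. That run therefore does not test the calls made on the real arrays. The members and lists were chosen with earlier results of these data known. Every member probe was named, and from each other list genes among the 4 with the smallest adjusted p in a comparison, plus genes not measured. Alternatives covered background correction (normexp with an offset of 50), scaling, the value table, the filter, 1 probe per gene, outlier spots, slide, scan day, replicate number and leaving out each array.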

Additional observations from a re-analysis of the deposited data

How the results depend on the processing

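With 3 arrays a group and slide tied to quercetin, small changes and changes of dim probes are the least certain. Of the alternative values of the member probes, 389, 374 and 349 kept their direction and side of the threshold in hypoxia against normoxia, quercetin against hypoxia and quercetin against normoxia, and 7, 9 and 17 reversed. Read by 1 probe per gene, 5, 7 and 6 of 10 passed, where 64.2%, 58.4% and 44.3% of all genes did. In quercetin against normoxia, 3 member probes passed with normexp correction, where 14.0% of all probes did, and 4 with scan day as a block, where 25.8% did. Same-gene pairs that differed numbered 5 in hypoxia against normoxia with normexp (12.7% of all pairs), with slide as a block and with scan day as a block (16.3%). In quercetin against normoxia 1 pair differed with normexp (3.0% of all pairs) and with the scan-day block (3.5%), 4 after quantile normalization (13.3%) and 4 in the value table (13.2%), and leaving out 1 array at a time gave 1 to 3, the 1 without normoxia replicate 1. The median change of member probes relative to the spike-in probes was 0.21, -0.70 and -0.57, beside -0.42, 0.03 and -0.38 over all probes. The cause of these shifts was not tested.

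Reversals were as follows. In hypoxia against normoxia, Tpm1 P134213 was -0.28 after quantile normalization, -0.28 in the value table and -0.32 by spike-ins, which also gave -0.08 for Lmod1, -0.02 for Tpm1 P320620 and -0.02 for Mylk P537118. In quercetin against hypoxia, Tpm1 P134213 was 0.12 after quantile normalization and 0.11 in the value table, and normexp gave -0.03 for Smtn P1028692, -0.03 for Cald1 P315562, 0.34 for Cald1 P660246 and -0.15 for the Mylk pair. In quercetin against normoxia, Cald1 P315562 was -0.04 with normexp, -0.04 with median scaling and -0.38 by spike-ins. Cald1 P660246 was 0.00 after quantile normalization and in the value table, -0.09 by spike-ins and -0.35 with the scan-day block. By spike-ins Tpm2 P566079 was -0.09, Tpm2 P1042783 -0.02 and Myh11 P274021 -0.13, and with the scan-day block Myh11 P274021 was -0.20 and Tpm1 P475051 0.06. Leaving out 1 array at a time, Cald1 P315562 ranged from -0.10 to 0.03, -0.04 to 0.15 and -0.08 to 0.11 in the 3 comparisons. Smtn P1028692 ranged from -0.12 to 0.25 against hypoxia and -0.32 to 0.06 against normoxia, Smtn P989357 from -0.10 to 0.24 and Cald1 P276276 from -0.04 to 0.16 against hypoxia, and Tpm1 P475051 from -0.27 to 0.12 against normoxia.

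Same-numbered arrays did not deviate together: correlations of their deviations ran from -0.27 to 0.02, so the replicate numbers were not taken as pairs. With the replicate block 12, 12 and 8 member probes passed, where 60.0%, 54.5% and 38.6% of all probes did, and 8, 7 and 2 same-gene pairs differed, where 27.7%, 25.0% and 9.2% of all pairs did. Slide as a fixed block could be fitted only for hypoxia against normoxia, and for that comparison it equals the scan-day block.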
